A study of Homo sapiens with 12 samples.

Results

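Transcripts of 38 genes of cholesterol and fatty acid synthesis, and of the control and handling of their products, were compared across 6 groups of fibroblasts. The genes were chosen by symbol as a pathway list, and all 38 were among the 13937 genes of the deposited table. The sterol branch held 18 of them, of which 7 act from acetyl-CoA through mevalonate to farnesyl pyrophosphate and 11 from squalene to cholesterol. The fatty acid branch held 9, and the 11 members outside both branches were 5 regulators, 5 genes of sterol transport and efflux, and LPIN1. All 38 passed the filter on low values, which was at least 1 CPM (the count scaled to library size) in at least 2 libraries.

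The cells were WI-38, lung fibroblasts of human fetal origin, and every group was transfected with small interfering RNAs (siRNAs). The cGAS_YT group received siRNAs against the DNA sensor cGAS together with those against the coactivators YAP and TAZ. The cGAS group received the cGAS siRNAs with control siRNA. The STING_YT group received siRNAs against STING, which relays the signal of cGAS, together with the YAP and TAZ siRNAs, and the STING group received the STING siRNAs with control siRNA. The YT group received the YAP and TAZ siRNAs with control siRNA, and the control group received control siRNA alone. Each group had 2 libraries, and nothing in the labels says that these came from separate cultures, so that p-values measure only the spread between libraries, which may be technical. The cells are a single line, and depletion by siRNA is partial.

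Cells make cholesterol from acetyl-CoA by way of mevalonate, squalene and lanosterol, and they make fatty acids from the same acetyl-CoA by way of malonyl-CoA. The transcription factor SREBP-2, the product of SREBF2, mainly drives genes of cholesterol synthesis, and SREBP-1, the product of SREBF1, mainly drives genes of fatty acid synthesis. Both are held in the endoplasmic reticulum by INSIG proteins when sterol is plentiful, and SCAP carries them to the Golgi for activation when it is scarce. Oxysterols that build up in sterol-rich cells activate the nuclear receptors LXR, which raise genes of efflux such as ABCA1. Fibroblasts use these pathways for membranes.

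The libraries held 17790774 to 20650727 reads, so that 1 read was worth 0.0472 to 0.0568 CPM. Of the targeted genes, YAP1 was at 21.2% of its control mean in cGAS_YT cells, 13.1% in STING_YT cells and 13.4% in YT cells, and WWTR1, which encodes TAZ, at 13.2%, 8.70% and 14.2%. The cGAS gene, under its older symbol MB21D1, was at 18.7% of control in cGAS_YT cells and 23.5% in cGAS cells, and TMEM173, the gene of STING, at 6.66% in STING_YT cells and 7.39% in STING cells. MB21D1 was also below control in STING_YT cells (61.4%) and STING cells (64.4%). WWTR1 stood at 93.5 and 97.7 CPM in cGAS libraries and 102 and 99.2 CPM in STING libraries, below its 133 and 144 CPM in control libraries. YAP1 stood at 95.5 and 91.1 CPM in cGAS libraries and 94.7 and 82.2 CPM in STING libraries, against 114 and 105 CPM in control libraries. All 10 fibroblast markers were present and summed to 22987 to 36766 CPM, and 4 of 15 markers of other cell types were in the table and summed to 19.3 to 38.1 CPM. Within the groups, 25 to 54 genes differed over 2-fold between the libraries of the 4 groups with cGAS or STING siRNAs, 249 between the YT libraries and 77 between the control libraries.

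Other genes and programmes moved with the same siRNAs. Among the 4 markers of other cell types MYH11, a myosin of smooth muscle, stood at 16.95 and 22.98 CPM in cGAS_YT libraries, 4.93 and 6.97 CPM in cGAS libraries, 2.998 and 3.15 CPM in STING_YT libraries, 1.21 and 2.31 CPM in STING libraries, 2.64 and 1.60 CPM in YT libraries and 2.80 and 1.82 CPM in control libraries. It was thus highest in both groups with cGAS siRNAs, with a log2 change of 2.76 ± 0.26 in cGAS_YT against YT (adjusted p = 3.46e-07, limma) and 1.07 ± 0.26 in cGAS against control (0.0059). Mitochondrially encoded genes took 2.20% and 2.36% of the reads in cGAS_YT libraries, 2.38% and 2.27% in cGAS libraries, 3.22% and 3.11% in STING_YT libraries, 2.26% and 2.95% in STING libraries, 2.23% and 1.83% in YT libraries and 2.27% and 1.46% in control libraries. Of the 13 such genes 8 rose and 0 fell in STING_YT against YT, with a median log2 change of 0.66, and 5 rose and 0 fell in each of STING against control and cGAS against control. The sum of 12 interferon-stimulated genes was 4218 and 7850 CPM in cGAS_YT libraries, 5850 to 6350 CPM in cGAS libraries, 1194 to 1342 CPM in STING_YT libraries, 685 to 1077 CPM in STING libraries, 533 to 635 CPM in YT libraries and 389 to 392 CPM in control libraries. The sum of 12 cell cycle genes was 117 to 131 CPM in cGAS_YT libraries, 331 to 343 CPM in cGAS libraries, 128 to 137 CPM in STING_YT libraries, 774 to 796 CPM in STING libraries, 121 CPM in both YT libraries and 660.1 to 697 CPM in control libraries. The interferon sum was thus high in both groups with cGAS siRNAs, and the cell cycle sum low in the groups with YAP and TAZ siRNAs. With cGAS siRNAs alone the cell cycle sum was also below control. There 10 of the 12 cell cycle genes fell (median log2 change -0.84), where 14.3% of all genes tested fell. The part of the cells that express MYH11, of the mitochondrial share or of either programme in the lipid gene values was not tested.

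The 2 branches moved in the same direction in most groups, up with cGAS siRNAs and down with STING siRNAs. In every library a gene's log2(CPM + 1) was set against its mean over the control libraries. The median of the sterol branch was 1.19 and 1.18 in the cGAS_YT libraries, 0.74 and 0.72 in the cGAS libraries, -0.41 and -0.42 in the STING_YT libraries, -0.30 and -0.27 in the STING libraries and 0.15 and 0.29 in the YT libraries. The median of the fatty acid branch was 0.67 and 0.58 in the cGAS_YT libraries, 0.72 and 0.81 in the cGAS libraries, -0.42 and -0.52 in the STING_YT libraries, -0.38 and -0.37 in the STING libraries and 0.17 and -0.03 in the YT libraries. By these medians the branches lay side by side with cGAS siRNAs alone. The sterol median stood above the fatty acid median where the YAP and TAZ siRNAs were added to the cGAS siRNAs. Summed over its genes, the sterol branch reached 1960 and 1885 CPM in the cGAS_YT libraries, against 683 and 737 CPM in the control libraries. In the cGAS libraries the sterol sum was 1395 and 1373 CPM. The fatty acid branch reached 1591 and 1555 CPM in the cGAS_YT libraries, against 794 and 807 CPM in the control libraries. In the cGAS libraries the fatty acid sum was 1284 and 1289 CPM. From cGAS to cGAS_YT libraries the fatty acid sum was thus higher, while the fatty acid median relative to control was lower. That lower median is no fall of the branch, since the gene in the middle can differ between groups. Gene by gene, in cGAS_YT against cGAS, 7 of the 9 fatty acid genes had a positive log2 change and 2 a negative one (median 0.29). The difference between branches was not tested.

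**Figure D1:**
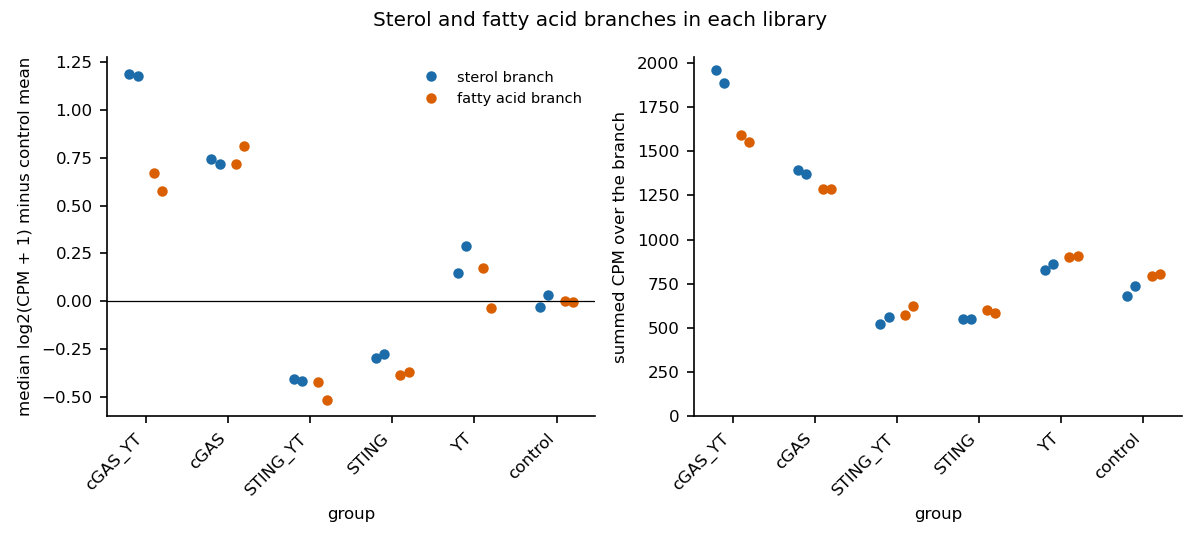
Each point is 1 library. The left panel shows the median log2(CPM + 1) of the 18 sterol genes (blue) and of the 9 fatty acid genes (orange) relative to the control mean, and the right panel shows the summed CPM. In the cGAS_YT libraries the sterol medians of 1.19 and 1.18 lie above the fatty acid medians of 0.67 and 0.58.

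The cGAS_YT group had the highest mean of the 6 groups for 15 of 18 sterol genes and 7 of 9 fatty acid genes. The exceptions in the sterol branch were SQLE, highest in cGAS cells, HSD17B7, highest in YT cells, and PMVK, highest in control cells. The lowest mean of a sterol gene was always in a group with STING siRNAs, the STING group for 8 genes and the STING_YT group for 10. For the fatty acid genes it was the STING group for 3, the STING_YT group for 5 and the YT group for 1, ACACA. Extremes were counted among the members only, with no share over all genes beside them. Nothing is therefore read from these counts about the branches. Between the highest and the lowest group the means differed 7.99-fold for HMGCS1, 6.82-fold for FADS2, 6.25-fold for TM7SF2 and 6.05-fold for IDI1, against 1.28-fold for PMVK and 1.47-fold for ACLY.

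**Figure D2:**
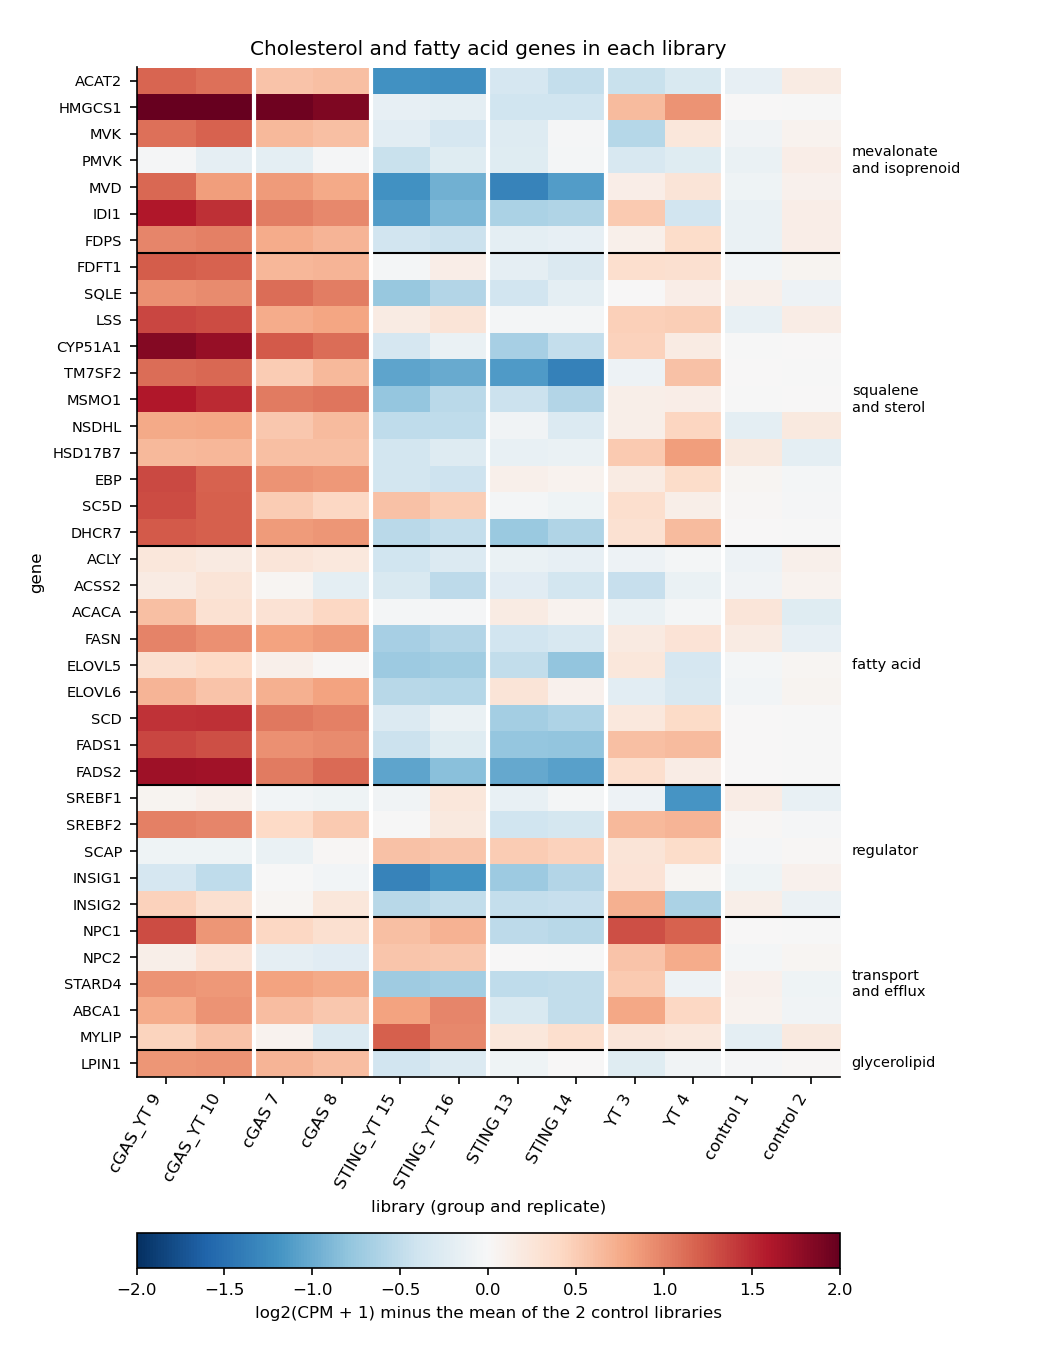
Rows are the 38 genes in the order of their roles and columns are the 12 libraries. The colour gives log2(CPM + 1) minus the mean of the control libraries, red above it and blue below. The scale ends at 2 and -2, and HMGCS1 lies past its upper end in both cGAS_YT libraries, while PMVK, ACLY and ACACA stay pale throughout.

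The comparison of cGAS with control asks what differed with the cGAS siRNAs alone. Genes at most steps of cholesterol synthesis rose, led by HMGCS1, CYP51A1 and SQLE. In the sterol branch 16 of 18 genes rose, with a median log2 change of 0.74, and in the fatty acid branch 5 of 9 rose, with a median of 0.76. A gene was called at an adjusted p under 0.05 (limma, Benjamini-Hochberg over all genes tested). Over all members 26 of 38 rose and 0 fell by limma, where 11.1% of all 13894 genes tested rose and 14.3% fell, and the median of all genes was -0.02. At an unadjusted p under 0.05, 29 members rose and 1 fell, and edgeR and DESeq2 each called 26 higher and 0 lower.

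The mevalonate steps rose in 6 of 7 genes. HMGCS1 encodes the synthase that makes HMG-CoA, the substrate from which mevalonate is made, and lies on chromosome 5 at 43289395 to 43313512 (GRCh38, minus strand). It stood at 229.9 and 217 CPM in cGAS libraries, against 59.5 and 58.2 CPM in control libraries. The groups were far apart, and the log2 change was 1.91 ± 0.09 (SE; adjusted p = 8.34e-10, limma), the largest of the 38 genes in this comparison. IDI1, the isomerase of isopentenyl pyrophosphate, stood at 78.9 and 75.3 CPM in cGAS libraries, against 34.8 and 42.2 CPM in control libraries (0.99 ± 0.19, adjusted p = 0.00123). MVD, which makes isopentenyl pyrophosphate, stood at 26.9 and 25.1 CPM in cGAS libraries, against 13.5 and 15.5 CPM in control libraries (0.80 ± 0.16, adjusted p = 0.00131). FDPS, which makes farnesyl pyrophosphate, changed by 0.72 ± 0.11, the mevalonate kinase gene MVK by 0.62 ± 0.20 and ACAT2, the cytosolic thiolase at the head of the pathway, by 0.58 ± 0.11. The exception was PMVK, the phosphomevalonate kinase, at 23.3 and 26.2 CPM in cGAS libraries, against 24.4 and 29.3 CPM in control libraries. Its groups overlapped here, and it passed the test in none of the 11 comparisons. Where TCP1 overlaps the 3′ end of ACAT2 on the opposite strand the reads of the 2 genes could not be told apart, since the strand setting of the count is not given in the sources used here.

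Of the 11 genes from squalene to cholesterol 10 rose. CYP51A1, the lanosterol demethylase, stood at 158 and 146 CPM in cGAS libraries, against 66.4 and 67.2 CPM in control libraries (1.17 ± 0.11, adjusted p = 9.43e-07). SQLE, the squalene epoxidase, stood at 105 and 98.4 CPM in cGAS libraries, against 51.3 and 44.8 CPM in control libraries (1.07 ± 0.10, adjusted p = 1.61e-06). MSMO1, a sterol methyl oxidase, stood at 175 and 178 CPM in cGAS libraries, against 83.9 and 84.6 CPM in control libraries (1.06 ± 0.09, adjusted p = 5.61e-07). None of these groups overlapped. The sterol isomerase gene EBP rose by 0.88 ± 0.12, the last-step reductase DHCR7 by 0.87 ± 0.11, the lanosterol synthase LSS by 0.77 ± 0.11 and the squalene synthase FDFT1 by 0.67 ± 0.08. NSDHL, SC5D and TM7SF2, which also act on the sterol rings, rose by 0.59 ± 0.13, 0.46 ± 0.12 and 0.58 ± 0.19. HSD17B7, a sterol ketone reductase, stood at 1.83 and 1.82 CPM in cGAS libraries, against 1.14 and 0.625 CPM in control libraries, and did not pass (0.60 ± 0.22, adjusted p = 0.0612).

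In the fatty acid branch the genes that rose were those of the synthase, an elongase and the desaturases. FADS2, the delta-6 desaturase, stood at 173 and 183 CPM in cGAS libraries, against 84.1 and 82.3 CPM in control libraries (1.09 ± 0.09, adjusted p = 4.11e-07). SCD, the delta-9 desaturase that makes oleate, stood at 298 and 288 CPM in cGAS libraries, against 144 and 142 CPM in control libraries (1.03 ± 0.08, adjusted p = 1.93e-07). FASN, the fatty acid synthase, stood at 141 and 145 CPM in cGAS libraries, against 89.2 and 71.5 CPM in control libraries (0.83 ± 0.10, adjusted p = 1.25e-05). Each of the 3 had its lowest cGAS library well above its highest control library. The delta-5 desaturase FADS1 rose by 0.93 ± 0.08 and the elongase ELOVL6 by 0.76 ± 0.11. FADS1 and FADS2 overlap on opposite strands of chromosome 11 (61799625 to 61829318 and 61792980 to 61867354, GRCh38). Their reads could not be told apart where they share bases. FADS2 covers the 3′ end of FADS1, while FADS1 does not reach the 3′ end of FADS2. With the 3′ end kit used, the overlap bears mainly on FADS1. The genes that supply acetyl-CoA and malonyl-CoA did not pass: ACLY, the citrate lyase, at 0.22 ± 0.09 (adjusted p = 0.0671), ACACA, the acetyl-CoA carboxylase, at 0.35 ± 0.15 (0.0979) and ACSS2, the acetyl-CoA synthetase, at -0.07 ± 0.18 (0.801). ELOVL5, an elongase of polyunsaturated fatty acids, was at 0.06 ± 0.14 (0.807).

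Of the 26 members that rose with cGAS siRNAs, 21 were called with each of the 12 libraries left out in turn. MVK, TM7SF2, NSDHL, SC5D and NPC1 were not, with the weakest values for MVK without control replicate 1 (0.55, adjusted p = 0.156), TM7SF2 without cGAS replicate 8 (0.51, 0.188), NSDHL without control replicate 1 (0.40, 0.0637), SC5D without cGAS replicate 7 (0.41, 0.0931) and NPC1 without cGAS replicate 7 (0.32, 0.218). The call of NPC1 ended in 8 of the 12 omissions and those of MVK and TM7SF2 in 4 each. The spread was estimated over all 6 groups in 1 fit. Leaving out a library outside the groups compared therefore keeps the log2 change and alters only the spread and the adjustment. A call that ends in such an omission, here or below, does not rest on a change of the estimate. In bulk samples such as these a change in the number of expressing cells and a change in RNA per cell cannot be told apart.

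**Figure D3:**
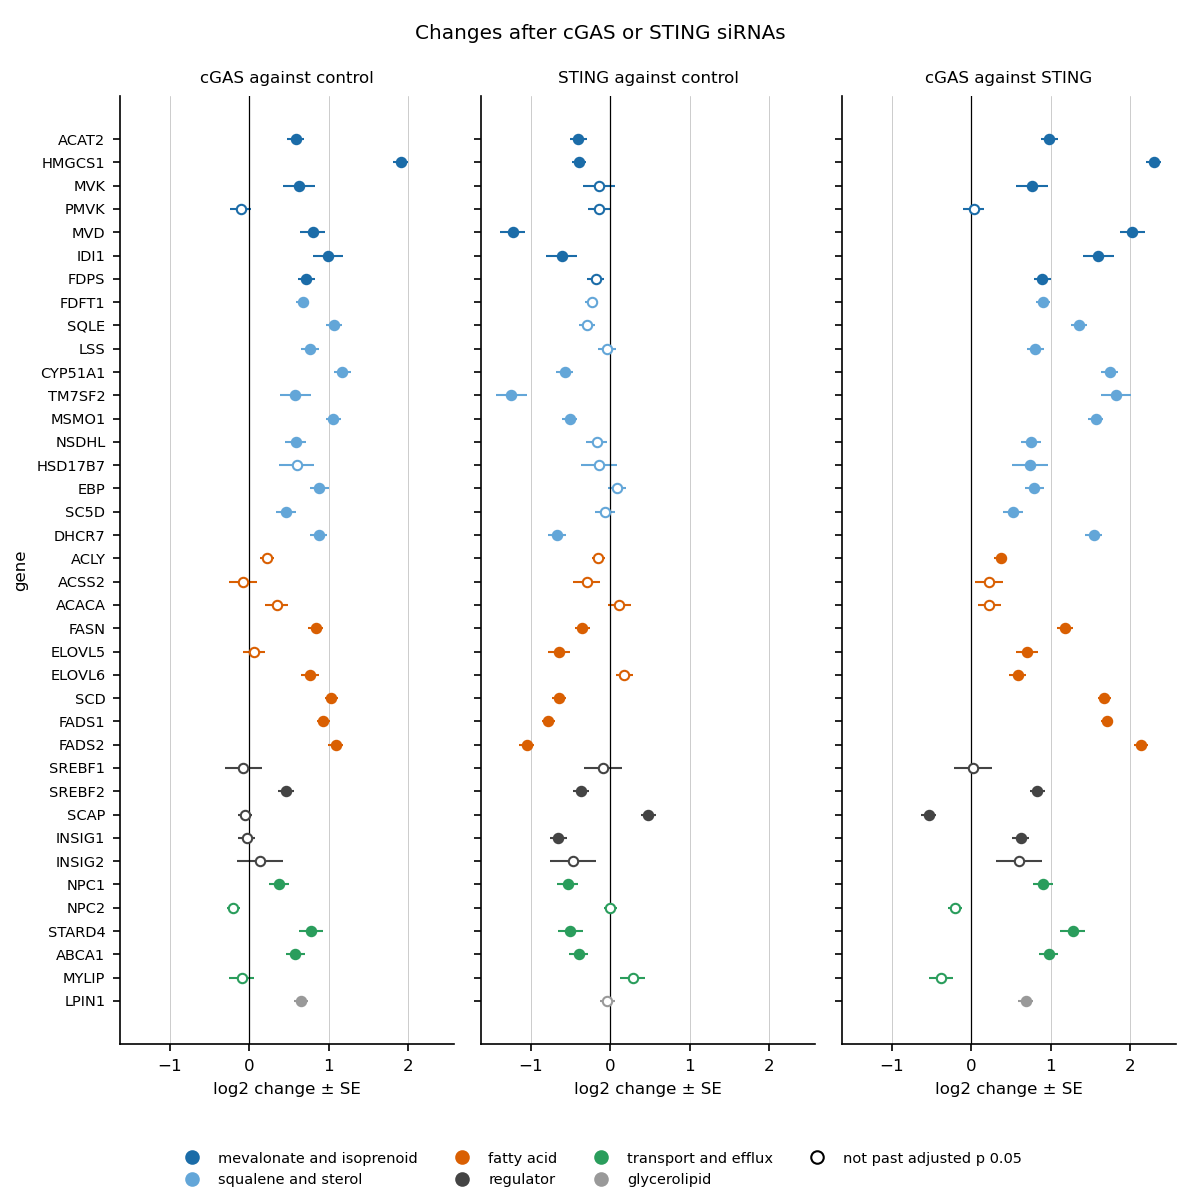
Points give the fitted log2 change of each gene with its SE, for cGAS against control (left), STING against control (middle) and cGAS against STING (right). Filled points passed an adjusted p of 0.05. Sterol genes (blue) other than PMVK lie right of 0 in the left panel, led by HMGCS1 at 1.91, and MVD and TM7SF2 are lowest in the middle panel at -1.23 and -1.24.

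The comparison of STING with control asks the same of the STING siRNAs alone. Sterol and fatty acid genes fell or did not pass the test, and by limma 0 of the 27 rose, also at an unadjusted p under 0.05. Of 18 sterol genes 8 fell (median -0.26), and of 9 fatty acid genes 5 fell (median -0.35). Over all members 18 fell and 1, SCAP, rose, where 8.86% of all genes tested fell and 6.14% rose, and edgeR and DESeq2 gave the same counts. The comparison shares its control libraries with that of cGAS against control.

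TM7SF2, a sterol reductase, stood at 4.25 and 3.54 CPM in STING libraries, against 10.7 and 10.5 CPM in control libraries (-1.24 ± 0.19, adjusted p = 0.000349). MVD stood at 5.15 and 6.12 CPM in STING libraries, against 13.5 and 15.5 CPM in control libraries (-1.23 ± 0.16, adjusted p = 6.45e-05). FADS2 stood at 40.6 and 38.6 CPM in STING libraries, against 84.1 and 82.3 CPM in control libraries (-1.05 ± 0.09, adjusted p = 1.67e-06). In these 3 genes both STING libraries lay far below both control libraries. FADS1 fell by 0.78 ± 0.08, DHCR7 by 0.67 ± 0.11, SCD by 0.64 ± 0.08, ELOVL5 by 0.64 ± 0.14, CYP51A1 by 0.57 ± 0.11 and MSMO1 by 0.51 ± 0.09. HMGCS1 was at 44.5 and 44.6 CPM in STING libraries, against 59.5 and 58.2 CPM in control libraries, a fall of 0.39 ± 0.09. LSS (-0.04 ± 0.11), SC5D (-0.07 ± 0.12) and EBP (0.09 ± 0.12) of the sterol branch, and ACACA (0.12 ± 0.15) and ELOVL6 (0.18 ± 0.11) of the fatty acid branch, did not pass.

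Of the 18 members that fell with STING siRNAs, 9 were called with each library left out: MVD, CYP51A1, TM7SF2, MSMO1, DHCR7, SCD, FADS1, FADS2 and INSIG1. The other calls ended without at least 1 library, and 12 of the 38 members were called in all when control replicate 1 was dropped, 11 when STING replicate 13 was and 10 when STING replicate 14 was. The weakest values were, for ACAT2, -0.25 without control replicate 2 (adjusted p = 0.203), for HMGCS1 -0.39 without STING replicate 13 (0.0607), for IDI1 -0.48 without control replicate 2 (0.251), for FASN -0.19 without control replicate 1 (0.288) and for ELOVL5 -0.50 without STING replicate 14 (0.0979). For SREBF2 it was -0.35 without STING replicate 13 (0.12), for NPC1 -0.52 without STING replicate 14 (0.0748), for STARD4 -0.42 without control replicate 1 (0.221) and for ABCA1 -0.31 without STING replicate 14 (0.257). The calls of IDI1 and STARD4 ended in 10 of the 12 omissions each and that of ABCA1 in 6.

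The cGAS and STING groups were also set directly against each other, so that the log2 changes use no control library. The spread behind the p-values was still estimated over all 12 libraries. In cGAS against STING 17 of 18 sterol genes were higher (median 0.95) and 7 of 9 fatty acid genes (median 0.70). Over all members 30 were higher and 1, SCAP, was lower, where 15.99% of all genes tested were higher and 17.6% lower. HMGCS1 differed by 2.30 ± 0.09 (adjusted p = 6.76e-11), FADS2 by 2.14 ± 0.09, MVD by 2.03 ± 0.16, TM7SF2 by 1.82 ± 0.19, CYP51A1 by 1.75 ± 0.11 and FADS1 by 1.71 ± 0.08. ACSS2 (0.22 ± 0.18) and ACACA (0.23 ± 0.15) did not pass. Of the 30 calls, 28 were made with each library left out, the exceptions being MVK (0.65 without STING replicate 13, adjusted p = 0.0877) and HSD17B7 (0.73 without STING replicate 13, 0.0832).

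The YAP and TAZ siRNAs were tested in 3 backgrounds whose log2 changes share no library, though the tests share 1 estimate of the spread. Alone, in YT against control, 6 of 18 sterol genes rose and 1 fell (median 0.24), and 3 of 9 fatty acid genes rose (median -0.06, and 0.17 without YT replicate 4). Over all members 14 rose and 2 fell, of which SREBF1 had overlapping groups, where 20.6% of all genes tested rose and 20.9% fell. On top of cGAS siRNAs, in cGAS_YT against cGAS, 11 sterol genes (median 0.50) and 3 fatty acid genes (median 0.29) rose, and 18 members in all rose and 1, INSIG1, fell, where 15.02% of all genes rose and 12.7% fell. On top of STING siRNAs, in STING_YT against STING, 3 sterol genes rose and 4 fell (median -0.13), and 2 fatty acid genes rose and 2 fell (median -0.11). All members then gave 10 that rose and 8 that fell, where 19.1% of all genes rose and 19.8% fell.

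**Figure D4:**
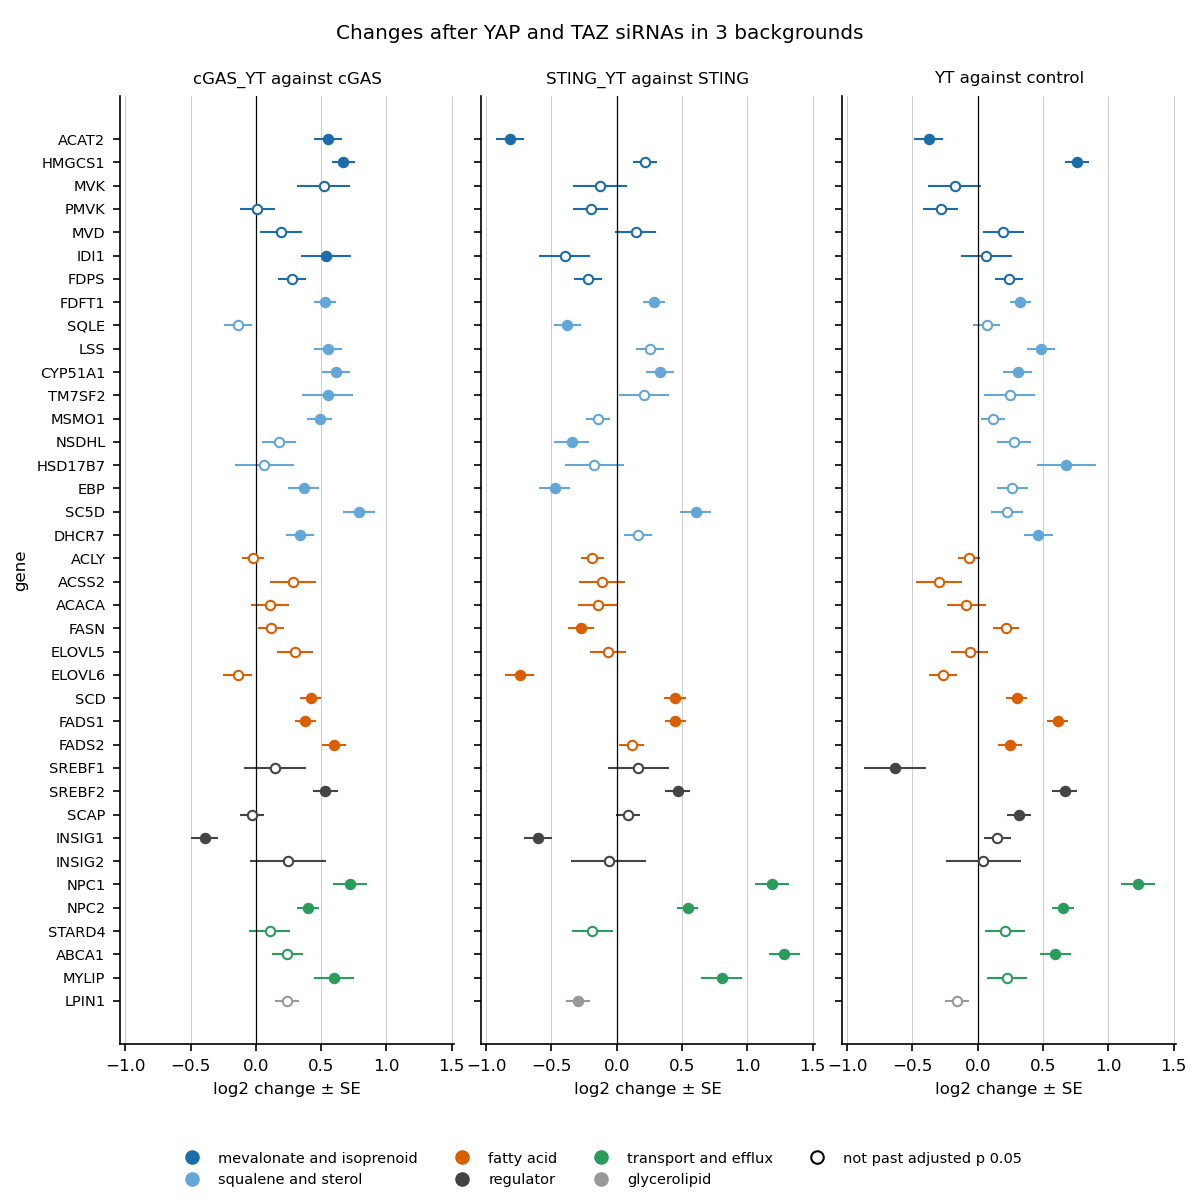
Points give the fitted log2 change of each gene with its SE after YAP and TAZ siRNAs, on top of cGAS siRNAs (left), on top of STING siRNAs (middle) and alone (right). Filled points passed an adjusted p of 0.05. ACAT2 lies at 0.55 in the left panel and at -0.82 and -0.38 in the others, while NPC1 lies right of 0 in all 3.

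In YT against control HMGCS1 stood at 91.5 and 110.3 CPM in YT libraries, against 59.5 and 58.2 CPM in control libraries (0.76 ± 0.09, adjusted p = 4.76e-06). LSS stood at 40.2 and 40.9 CPM in YT libraries, against 25.7 and 32.0 CPM in control libraries (0.48 ± 0.11, adjusted p = 0.00195). FADS1 stood at 179.8 and 184 CPM in YT libraries, against 119 and 118 CPM in control libraries (0.61 ± 0.08, adjusted p = 1.27e-05). The YT libraries were above both control libraries in all 3. IDI1, in contrast, was at 55.3 and 29.2 CPM in YT libraries, against 34.8 and 42.2 CPM in control libraries, so that the control values lay between the YT values. MVK was at 7.03 and 13.02 CPM in YT libraries, against 10.4 and 11.6 CPM in control libraries, and its groups overlapped likewise. DHCR7 rose by 0.46 ± 0.11 and FDFT1 by 0.33 ± 0.08. CYP51A1 rose by 0.31 ± 0.11 (0.16 without YT replicate 3, adjusted p = 0.237), HSD17B7 by 0.68 ± 0.22 (0.48 without control replicate 2, 0.183), SCD by 0.30 ± 0.08 (0.21 without YT replicate 4, 0.0532) and FADS2 by 0.25 ± 0.09 (0.16 without YT replicate 3, 0.206), whose call ended in 9 of the 12 omissions. ACAT2 fell by 0.38 ± 0.11 (-0.22 without control replicate 2, 0.173). ACLY (-0.07 ± 0.09) and ACACA (-0.09 ± 0.15) did not pass.

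On top of cGAS siRNAs HMGCS1 reached 357 and 354 CPM in cGAS_YT libraries, against 229.9 and 217 CPM in cGAS libraries (0.67 ± 0.09, adjusted p = 4.23e-05). CYP51A1 reached 241 and 225 CPM in cGAS_YT libraries, against 158 and 146 CPM in cGAS libraries (0.61 ± 0.11, adjusted p = 0.000498). SC5D, the lathosterol desaturase, reached 44.4 and 40.8 CPM in cGAS_YT libraries, against 25.0 and 23.4 CPM in cGAS libraries (0.79 ± 0.12, adjusted p = 0.00014). The libraries of the 2 groups did not overlap in any of these. FADS2 rose by 0.60 ± 0.09, LSS by 0.55 ± 0.11, ACAT2 by 0.55 ± 0.11, FDFT1 by 0.53 ± 0.08, MSMO1 by 0.49 ± 0.09, SCD by 0.42 ± 0.08 and FADS1 by 0.38 ± 0.08. SQLE was at 91.7 and 93.2 CPM in cGAS_YT libraries, against 105 and 98.4 CPM in cGAS libraries, and did not pass (-0.14 ± 0.10). FASN (0.12 ± 0.10) and ACLY (-0.02 ± 0.09) did not pass either. The calls of IDI1 and TM7SF2 ended in 10 of the 12 omissions of 1 library each, and those of EBP and DHCR7 in 4. Their values were weakest for IDI1 (0.54 ± 0.19; 0.50 without cGAS replicate 8, adjusted p = 0.203), TM7SF2 (0.55 ± 0.19; 0.48 without cGAS replicate 7, 0.209), EBP (0.37 ± 0.12; 0.30 without cGAS_YT replicate 9, 0.171) and DHCR7 (0.34 ± 0.11; 0.32 without cGAS replicate 7, 0.139).

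On top of STING siRNAs the calls went in both directions, and the shares of members that rose and fell were near those of all genes given above, so that nothing is read from them about the branches. ACAT2 was at 24.2 and 23.9 CPM in STING_YT libraries, against 45.2 and 41.0 CPM in STING libraries (-0.82 ± 0.11, adjusted p = 1.69e-05). ELOVL6, which elongates palmitate, was at 19.4 and 19.2 CPM in STING_YT libraries, against 35.1 and 31.0 CPM in STING libraries (-0.74 ± 0.11, adjusted p = 4.87e-05). EBP was at 13.6 and 13.2 CPM in STING_YT libraries, against 19.1 and 18.9 CPM in STING libraries (-0.48 ± 0.12, adjusted p = 0.00461). These 3 were lower in both STING_YT libraries than in either STING library. In the other direction SC5D rose by 0.60 ± 0.12, SCD by 0.45 ± 0.08 and FADS1 by 0.45 ± 0.08. FDFT1 rose by 0.28 ± 0.08 (0.20 without STING_YT replicate 16, adjusted p = 0.168) and CYP51A1 by 0.33 ± 0.11 (0.23 without STING replicate 13, 0.22). SQLE fell by 0.38 ± 0.10 (-0.29 without STING replicate 14, 0.108), NSDHL by 0.35 ± 0.13 (-0.25 without STING replicate 13, 0.292, and lost in 8 of the 12 omissions), FASN by 0.27 ± 0.10 (-0.24 without STING_YT replicate 15, 0.188, and lost in 6) and LPIN1 by 0.30 ± 0.09 (-0.24 without STING_YT replicate 15, 0.133). HMGCS1 was at 52.7 and 51.3 CPM in STING_YT libraries, against 44.5 and 44.6 CPM in STING libraries, and did not pass (0.22 ± 0.09, adjusted p = 0.0691).

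The members called higher in all 3 backgrounds were FDFT1, CYP51A1, SCD, FADS1, SREBF2, NPC1 and NPC2. The share of all genes tested that was called higher in all 3 was 7.16%, or 995 genes, and the 7 members were 18.4% of the 38. They were 7 of the 14 that rose in YT against control, 7 of the 18 in cGAS_YT against cGAS and 7 of the 10 in STING_YT against STING. ACAT2 and EBP rose on top of cGAS siRNAs and fell on top of STING siRNAs.

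Whether the YAP and TAZ effect differed between backgrounds was tested in the same fit as an interaction. Few members passed. For the cGAS siRNAs the difference was positive for ACAT2 (0.93 ± 0.15, adjusted p = 0.000599) and SC5D (0.57 ± 0.17, 0.0377) and negative for INSIG1 (-0.54 ± 0.15, 0.0232), so that 2 members were higher and 1 lower, where 7.50% and 5.93% of all genes tested were. For the STING siRNAs it was negative for HMGCS1 (-0.55 ± 0.13, 0.0139), NSDHL (-0.62 ± 0.18, 0.0487), EBP (-0.74 ± 0.17, 0.0117), FASN (-0.49 ± 0.14, 0.0401) and INSIG1 (-0.76 ± 0.15, 0.0044) and positive for ABCA1 (0.69 ± 0.17, 0.018), so that 1 member was higher and 5 lower, where 3.35% and 4.53% of all genes were. With each library left out in turn, ACAT2 with cGAS and INSIG1 with STING siRNAs were called throughout. Members called for cGAS were 11 without YT replicate 3, 6 without YT replicate 4 and 1 without control replicate 1, cGAS replicate 7, cGAS replicate 8 or cGAS_YT replicate 10. For STING they were 11 without YT replicate 3, 3 without STING_YT replicate 15 and 2 without STING replicate 13, STING replicate 14 or STING_YT replicate 16. SC5D was lost in 11 of the 12 omissions (0.52 without cGAS replicate 8, adjusted p = 0.135) and NSDHL in 10 (-0.53 without STING replicate 13, 0.209). The others were lost in at least 1, INSIG1 with cGAS siRNAs at -0.46 without cGAS_YT replicate 10 (0.104), HMGCS1 at -0.53 without STING_YT replicate 16 (0.0642), EBP at -0.73 without STING replicate 13 (0.0533), FASN at -0.34 without control replicate 2 (0.163) and ABCA1 at 0.60 without STING_YT replicate 16 (0.0991).

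The cGAS and STING siRNAs were also compared among cells that all had the YAP and TAZ siRNAs. The direction of both branches was that seen without them. In cGAS_YT against YT 16 of 18 sterol genes rose (median 0.88) and all 9 fatty acid genes rose (median 0.70). Over all members 29 rose and 3, SCAP, INSIG1 and NPC2, fell, where 20.5% of all genes rose and 20.2% fell. In STING_YT against YT 14 sterol genes (median -0.75) and 7 fatty acid genes (median -0.49) fell. Over all members 25 fell and 3, SREBF1, SCAP and MYLIP, rose, where 18.01% of all genes fell and 16.04% rose. These 2 comparisons share the YT libraries.

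In cGAS_YT against YT HMGCS1 had the largest change of the 38 (1.81 ± 0.09, adjusted p = 2.68e-10). ACAT2 stood at 129.7 and 124 CPM in cGAS_YT libraries, against 41.6 and 46.3 CPM in YT libraries (1.51 ± 0.11, adjusted p = 1.41e-08). MSMO1 stood at 259 and 238 CPM in cGAS_YT libraries, against 91.2 and 92.0 CPM in YT libraries (1.43 ± 0.09, adjusted p = 4.77e-09). FADS2 stood at 271 and 269 CPM in cGAS_YT libraries, against 105 and 92.8 CPM in YT libraries (1.44 ± 0.09, adjusted p = 4.21e-09). In all of these the lower cGAS_YT library was above the higher YT library. LPIN1, a phosphatidate phosphatase of glycerolipid synthesis, rose by 1.05 ± 0.09, with a mean of 187% of control in cGAS_YT cells and 89.6% of control in YT cells. ACLY, ACSS2, ACACA and ELOVL5 rose by 0.27 ± 0.09, 0.51 ± 0.18, 0.54 ± 0.15 and 0.42 ± 0.14, and these calls ended in 1 of the 12 omissions for ACLY and ACACA and in 3 for ACSS2 and ELOVL5. The weakest values were 0.24 for ACLY without cGAS_YT replicate 9 (adjusted p = 0.0981), 0.34 for ACSS2 without YT replicate 3 (0.177), 0.39 for ACACA without cGAS_YT replicate 9 (0.107) and 0.14 for ELOVL5 without YT replicate 4 (0.353).

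In STING_YT against YT MVD stood at 5.72 and 6.96 CPM in STING_YT libraries, against 16.006 and 17.5 CPM in YT libraries (-1.28 ± 0.16, adjusted p = 1.08e-05). TM7SF2 stood at 4.55 and 4.73 CPM in STING_YT libraries, against 9.83 and 16.4 CPM in YT libraries (-1.28 ± 0.19, adjusted p = 8.41e-05). DHCR7 stood at 27.6 and 28.7 CPM in STING_YT libraries, against 50.03 and 63.3 CPM in YT libraries (-0.97 ± 0.11, adjusted p = 4.16e-06). None of the groups overlapped, though the YT libraries were spread for TM7SF2 and DHCR7. HMGCS1 fell by 0.94 ± 0.09, FASN by 0.84 ± 0.10, ACAT2 by 0.84 ± 0.11, NSDHL by 0.79 ± 0.13, SQLE by 0.74 ± 0.10 and FDPS by 0.64 ± 0.11. FDFT1 (-0.28 ± 0.08; -0.19 without STING_YT replicate 15, adjusted p = 0.2), ACLY (-0.27 ± 0.09; -0.20 without STING_YT replicate 15, 0.21) and ELOVL6 (-0.30 ± 0.11; -0.29 without STING_YT replicate 16, 0.145) lost their calls, in 1 of the 12 omissions for FDFT1 and ACLY and in 9 for ELOVL6. SC5D (0.31 ± 0.12), LSS (-0.27 ± 0.11) and ACACA (0.06 ± 0.15) did not pass.

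The 2 doubly treated groups share no library with the comparison of cGAS and STING, apart from the spread estimated over all 12. In cGAS_YT against STING_YT 17 of 18 sterol genes were higher (median 1.62) and all 9 fatty acid genes (median 1.19). Over all members 32 were higher and 3, SCAP, NPC2 and MYLIP, lower, where 19.7% of all genes were higher and 17.2% lower. With 1 library left out NPC2 ranged over -0.42 to -0.27 and MYLIP over -0.70 to -0.46, and neither call held in every omission. HMGCS1 differed by 2.75 ± 0.09 (adjusted p = 7.84e-12), FADS2 by 2.63 ± 0.09, IDI1 by 2.54 ± 0.19, ACAT2 by 2.35 ± 0.11, MSMO1 by 2.20 ± 0.09 and TM7SF2 by 2.17 ± 0.19. The calls of ACSS2 (0.62 ± 0.18; 0.51 without STING_YT replicate 16, adjusted p = 0.1) and ACACA (0.49 ± 0.15; 0.34 without cGAS_YT replicate 9, 0.181) ended in 2 and in 3 of the 12 omissions.

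**Figure D5:**
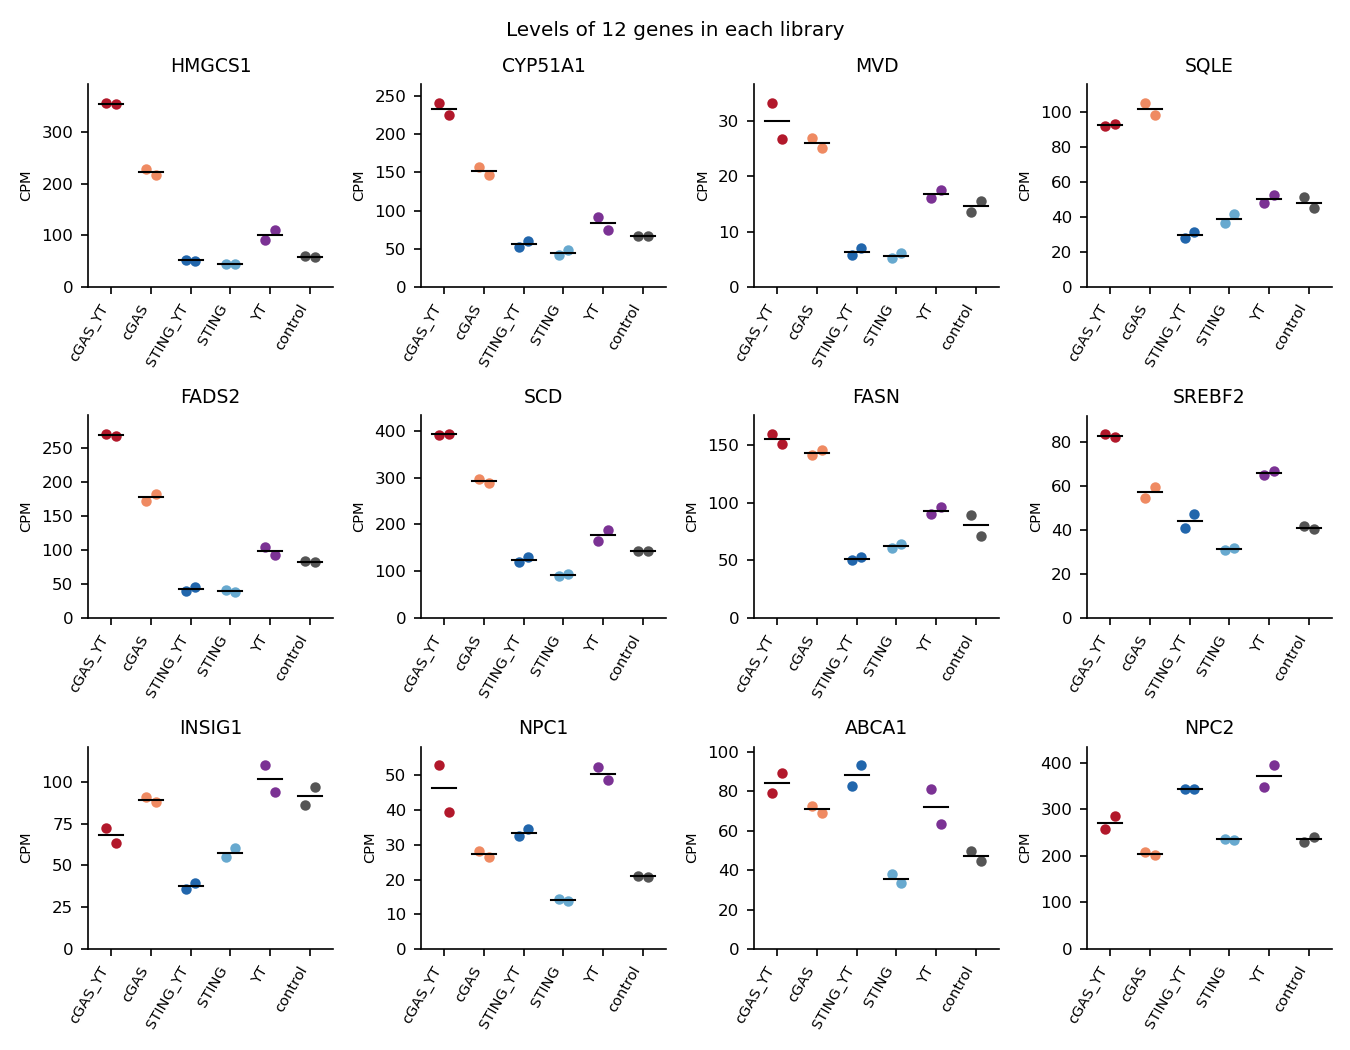
CPM of 12 genes in each library (points) with the mean of the 2 libraries (bars), on axes that start at 0. HMGCS1, CYP51A1, FADS2 and SCD have their highest mean in the cGAS_YT group and their lowest in the STING group, INSIG1 is lowest in STING_YT libraries, and NPC1 and NPC2 are higher in each group with YAP and TAZ siRNAs than in its counterpart.

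Among the regulators SREBF2 rose with cGAS siRNAs and fell with STING siRNAs. INSIG1 fell with STING siRNAs and was not called with cGAS siRNAs alone, but it was lower in cGAS_YT than in YT cells. SREBF2 stood at 83.8 and 82.2 CPM in cGAS_YT libraries, 54.6 and 59.6 CPM in cGAS libraries, 40.8 and 47.5 CPM in STING_YT libraries, 31.1 and 32.1 CPM in STING libraries, 64.9 and 66.8 CPM in YT libraries and 41.7 and 40.6 CPM in control libraries. It rose with cGAS siRNAs (0.46 ± 0.10, adjusted p = 0.00216) and fell with STING siRNAs (-0.37 ± 0.10, 0.0171; -0.35 without STING replicate 13, 0.12). With YAP and TAZ siRNAs it rose by 0.67 ± 0.10 alone, by 0.53 ± 0.10 on top of cGAS siRNAs and by 0.47 ± 0.10 on top of STING siRNAs.

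INSIG1, itself a target of SREBP and an anchor of the SREBP complex, stood at 72.1 and 63.7 CPM in cGAS_YT libraries, 90.9 and 87.6 CPM in cGAS libraries, 35.7 and 39.4 CPM in STING_YT libraries, 54.8 and 60.5 CPM in STING libraries, 110.0 and 93.7 CPM in YT libraries and 85.8 and 97.1 CPM in control libraries. The cGAS and control libraries overlapped, the cGAS_YT libraries lay below both, and the STING_YT libraries were lowest. It was not called with cGAS siRNAs alone (-0.03 ± 0.11, adjusted p = 0.86), where HMGCS1 rose by 1.91. On top of cGAS siRNAs the YAP and TAZ siRNAs went with a fall of 0.39 ± 0.11 (adjusted p = 0.0112; -0.30 without cGAS_YT replicate 10, 0.129), and on top of STING siRNAs with a fall of 0.60 ± 0.11 (0.000274). It fell by 0.66 ± 0.11 in STING against control (0.00052) and by 1.41 ± 0.11 in STING_YT against YT (4.66e-08). INSIG1 was also called lower in cGAS_YT against YT, with the lowest log2 change of the 5 regulators there (-0.58).

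SCAP, the escort of SREBP, was higher with STING siRNAs. It stood at 45.5 and 45.3 CPM in cGAS_YT libraries, 43.8 and 49.3 CPM in cGAS libraries, 72.7 and 71.4 CPM in STING_YT libraries, 68.9 and 66.8 CPM in STING libraries, 58.2 and 62.5 CPM in YT libraries and 47.7 and 48.98 CPM in control libraries. It rose with STING siRNAs (0.48 ± 0.09, adjusted p = 0.00207), the one member to do so, and with YAP and TAZ siRNAs alone (0.31 ± 0.09, 0.0119; 0.29 without control replicate 1, 0.0565), and it was lower in cGAS_YT than in YT cells (-0.40 ± 0.09, 0.00227). SREBF1 was at 17.9 and 7.92 CPM in YT libraries and between 17.2 and 22.5 CPM in the other 10 libraries, so that its call in YT against control (-0.64 ± 0.24, adjusted p = 0.0413) ended in 11 of the 12 omissions (-0.10 without YT replicate 4, 0.681). Its calls against YT, 0.71 ± 0.24 in cGAS_YT and 0.71 ± 0.24 in STING_YT cells, were also lost without that library (0.17 in each, adjusted p = 0.441 and 0.468). Its 3′ end overlaps RAI1 on the opposite strand, where the reads could not be told apart. INSIG2, the second anchor, was at 15.003 and 5.30 CPM in the YT libraries and passed in 1 comparison, cGAS_YT against STING_YT (0.91 ± 0.29, adjusted p = 0.0203; 0.84 without cGAS_YT replicate 9, 0.11).

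Among the genes of sterol transport and efflux, NPC1 and NPC2 rose with YAP and TAZ siRNAs in all 3 backgrounds. NPC1, which exports cholesterol from lysosomes, stood at 53.0 and 39.5 CPM in cGAS_YT libraries, against 28.3 and 26.5 CPM in cGAS libraries (0.72 ± 0.13, adjusted p = 0.000511). It stood at 32.4 and 34.6 CPM in STING_YT libraries, against 14.3 and 13.9 CPM in STING libraries (1.19 ± 0.13, adjusted p = 1.81e-06). It stood at 52.4 and 48.5 CPM in YT libraries, against 21.0 and 20.9 CPM in control libraries (1.23 ± 0.13, adjusted p = 1.13e-06). Libraries with YAP and TAZ siRNAs lay above their counterparts in each pair of groups. NPC2, its partner in the lysosome, rose by 0.40 ± 0.08, 0.54 ± 0.08 and 0.65 ± 0.08 in the same 3 comparisons.

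ABCA1, the transporter that loads cholesterol onto apolipoprotein A-I, stood at 82.7 and 93.2 CPM in STING_YT libraries, against 37.8 and 33.3 CPM in STING libraries (1.28 ± 0.12, adjusted p = 3.41e-07). It stood at 80.9 and 63.2 CPM in YT libraries, against 49.6 and 44.6 CPM in control libraries (0.59 ± 0.12, adjusted p = 0.000774), and at 79.0 and 89.0 CPM in cGAS_YT libraries, against 72.5 and 69.1 CPM in cGAS libraries (0.24 ± 0.12, 0.151). It was higher in cGAS than in control cells (0.58 ± 0.12, 0.00179). MYLIP, an LXR target whose product degrades the LDL receptor, stood at 41.0 and 34.7 CPM in STING_YT libraries, against 20.4 and 22.0 CPM in STING libraries (0.80 ± 0.15, adjusted p = 0.000573). It stood at 23.8 and 26.1 CPM in cGAS_YT libraries, against 18.2 and 14.2 CPM in cGAS libraries (0.60 ± 0.15, 0.00768; 0.43 without cGAS replicate 8, 0.125), and was not called in YT against control (0.22 ± 0.15). STARD4, a carrier of cholesterol between membranes that is driven by SREBP, rose by 0.78 ± 0.16 with cGAS siRNAs (adjusted p = 0.00144), fell by 0.50 ± 0.16 with STING siRNAs (0.0385; -0.42 without control replicate 1, 0.221) and was called with YAP and TAZ siRNAs in none of the 3 backgrounds (0.11 ± 0.16, -0.19 ± 0.16 and 0.21 ± 0.16 on top of cGAS siRNAs, on top of STING siRNAs and alone).

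The start regions of the genes were read for letters of known promoter elements, in the window from 250 bases before to 50 bases after each start in the RefSeq table (build GRCh38.p14). The table held 35116 windows for 27305 genes, and a gene was counted where any of its windows held the letters. Of the 38 members 34 had an entry; ACAT2, FDFT1, SQLE and FASN had none. Windows were searched on both strands for the sterol regulatory element TCACNCCAC, its core CACCCCAC (which overlaps it), the CCAAT box CCAAT, the GC box GGGCGG and the E-box CACGTG. The CCAAT letters were present in 13 of 15 sterol genes (86.7%), 6 of 8 fatty acid genes (75.0%) and 5 of 11 members outside both branches (45.5%), against 39.7% of all 27305 genes in the table. GC box letters were present in 32 of 34 members (94.1%), against 48.3% of all genes. In this paragraph all genes are those of the RefSeq table, expressed or not, and the shares among the genes tested here were not computed. The strict element TCACNCCAC was present in 1 member, SREBF2, against 1.39% of all genes, and its core in ABCA1 and SREBF2, against 3.39%. E-box letters were present in 6 of 34 members (17.6%), against 8.77%. A match of letters is no evidence of binding, and a missing match says only that these letters are not in the windows searched.

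Upstream sequences are shown for the sterol gene with the widest range, HMGCS1, for INSIG1, which was not called with cGAS siRNAs alone, and for SREBF2, which holds the strict sterol element. They are the 250 bases before the start first listed for the gene, 5′ to 3′ on the gene's own strand, from the RefSeq table of GRCh38.p14: chr5:43313413-43313662 on the minus strand, chr7:155297628-155297877 on the plus strand and chr22:41832855-41833104 on the plus strand. Windows at other listed starts are not shown. Capitals mark the letters of the searched elements on either strand, so that ATTGG is CCAAT and CCGCCC is GGGCGG read from the other strand.
HMGCS1: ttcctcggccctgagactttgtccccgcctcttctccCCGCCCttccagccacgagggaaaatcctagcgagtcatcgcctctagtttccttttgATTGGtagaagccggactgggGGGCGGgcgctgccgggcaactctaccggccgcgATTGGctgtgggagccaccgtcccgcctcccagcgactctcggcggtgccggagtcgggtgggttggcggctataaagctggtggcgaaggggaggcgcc
INSIG1: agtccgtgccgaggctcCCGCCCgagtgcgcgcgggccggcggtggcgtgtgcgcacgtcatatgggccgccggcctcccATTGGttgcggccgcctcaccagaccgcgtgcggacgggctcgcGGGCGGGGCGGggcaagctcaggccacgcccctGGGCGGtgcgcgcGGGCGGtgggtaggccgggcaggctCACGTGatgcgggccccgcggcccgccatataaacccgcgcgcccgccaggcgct
SREBF2: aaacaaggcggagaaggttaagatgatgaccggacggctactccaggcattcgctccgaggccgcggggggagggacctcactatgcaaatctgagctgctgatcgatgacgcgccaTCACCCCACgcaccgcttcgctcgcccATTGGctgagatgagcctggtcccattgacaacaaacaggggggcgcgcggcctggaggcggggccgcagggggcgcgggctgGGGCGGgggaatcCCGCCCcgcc
HMGCS1 has 2 CCAAT boxes and 2 GC boxes in this stretch, INSIG1 has 1 CCAAT box, 5 GC boxes and 1 E-box, and SREBF2 has the sterol element, 1 CCAAT box and 2 GC boxes. HMGCS1 and INSIG1 both hold CCAAT and GC box letters here and neither holds the sterol element.

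Genes of the same pathways outside the 38 were read from 3 further lists. Of 10 measured genes of sterol synthesis and SREBP processing, 3 rose and 2 fell in cGAS against control, 1 fell in STING against control and 2 fell in YT against control, where 11.1% and 14.3%, 8.86%, and 20.9% of all genes tested did. The counts in the STING and YT comparisons are near these shares. TMEM97, a sterol-responsive membrane protein, rose by 0.9999 ± 0.13 in cGAS_YT against cGAS and fell by 1.04 ± 0.13 in STING_YT against STING. C12orf49, which supports SREBP processing, fell by 0.61 ± 0.10 and 0.68 ± 0.10 in the same comparisons.

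Of 20 further genes of fatty acid and glycerolipid synthesis, 8 rose and 3 fell in cGAS against control, 2 rose and 4 fell in STING against control and 4 rose and 3 fell in YT against control. Of all genes tested 11.1% rose and 14.3% fell in the first of these, 6.14% and 8.86% in the second and 20.6% and 20.9% in the third, so that the YT counts, and the 3 that fell with cGAS siRNAs, are near the share of all genes. ACSL3, which activates long-chain fatty acids, rose by 0.69 ± 0.09 with cGAS siRNAs and fell by 0.40 ± 0.09 with STING siRNAs (-0.34 without control replicate 1, adjusted p = 0.0763). ACACB, the acetyl-CoA carboxylase of the mitochondrial surface, stood at 11.3 and 11.6 CPM in YT libraries, against 0.934 and 0.568 CPM in control libraries (2.84 ± 0.19, adjusted p = 7.65e-09), whereas ACACA did not pass there. Of 13 genes of LXR action, efflux, uptake and esterification, 7 rose and 2 fell in YT against control, 4 rose in cGAS_YT against cGAS and 5 rose in STING_YT against STING, where 20.6% and 20.9%, 15.02%, and 19.1% of all genes did. CYP27A1, which makes 27-hydroxycholesterol, rose by 1.25 ± 0.14, 0.93 ± 0.14 and 1.36 ± 0.14 in these comparisons, and LPCAT3, a lysophospholipid acyltransferase under LXR, by 0.69 ± 0.11 in YT against control and 1.01 ± 0.11 in STING_YT against STING. LPCAT3 was also higher on top of cGAS siRNAs, at 66.0 and 58.2 CPM in cGAS_YT libraries, against 40.7 and 38.9 CPM in cGAS libraries. ABCG1, an efflux transporter, rose by 1.70 ± 0.24 in YT against control. On top of cGAS siRNAs its groups overlapped, at 0.850 and 0.778 CPM in cGAS_YT libraries, against 1.11 and 0.393 CPM in cGAS libraries. It stood at 3.50 and 3.20 CPM in STING_YT libraries, against 0.525 and 0.805 CPM in STING libraries.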

How the data were processed

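RNA of 12 libraries of WI-38 cells was measured with a 3′ end kit, which reads about 1 fragment per transcript, so no length correction was made. Per the submitters' processing notes, the tools were STAR 2.5.3a, featureCounts and edgeR with the build hg38; the strand setting is not given in them. The deposited values are a signal in CPM (reads scaled to library size) divided by TMM factors, not plain CPM: all were whole reads, to within 0.01 reads, once depth and factor were taken out. The recovered factors were 0.969 to 1.025 and the totals 17790774 to 20650727 reads. The worth of 3 reads, 0.142 to 0.170 CPM, limits low genes, for counting error only.

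Groups came from the labels. Of 13937 genes, the 13894 that reached 1 CPM in 2 or more libraries were tested. Values were log2(CPM + 1), a scale that understates changes of low genes, and limma 3.58.1 in R 4.3.3 was fitted with an intensity trend to all 12 libraries in 6 groups, with 11 comparisons, each adjusted by Benjamini-Hochberg over all genes, and calls at 0.05. Because the values are scaled CPM, the test chosen for CPM was kept. The script was tested on simulated data. Every member is described; outside them the targets, TOP2A and MX1 as context genes, and up to 6 called genes of the other lipid lists per comparison, by smallest p, could be named. A gene that this rule would name is not reported here. Members and lists were chosen with earlier results of these data known. Alternatives were other pseudocounts, filters and scaling, a constant prior, a fit of only the groups compared, edgeR 4.0.16 and DESeq2 1.42.0 on the recovered reads, and leaving out each library. Positions are from GENCODE 29 (GRCh38).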

Additional observations from a re-analysis of the deposited data

Results flagged for a closer look

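The interaction term of the limma fit, which compares the effect of the YAP and TAZ siRNAs between backgrounds, passed for 8 members. With cGAS siRNAs 2 of 38 were higher and 1 lower, where 7.50% and 5.93% of all genes were, and with STING siRNAs 1 was higher and 5 lower, where 3.35% and 4.53% of all genes were. Except for the 5 lower with STING siRNAs these counts are near or below the share of all genes, and nothing is read from them about the pathway. On the log2 scale, against the effect in cells with control siRNA, the effect in cells with cGAS siRNAs was higher by 0.93 for ACAT2 (SE 0.15, adjusted p = 0.000599) and by 0.57 for SC5D (SE 0.17, 0.0377), and it fell by 0.54 for INSIG1 (SE 0.15, 0.0232). ACAT2 encodes the cytosolic thiolase at the head of the mevalonate pathway, SC5D a late sterol desaturase and INSIG1 an anchor of the SREBP complex.

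In cells with STING siRNAs the effect was different by -0.55 for HMGCS1 (SE 0.13, adjusted p = 0.0139), -0.62 for NSDHL (SE 0.18, 0.0487), -0.74 for EBP (SE 0.17, 0.0117), -0.49 for FASN (SE 0.14, 0.0401) and -0.76 for INSIG1 (SE 0.15, 0.0044), and by 0.69 for ABCA1 (SE 0.17, 0.018). ACAT2 with cGAS siRNAs and INSIG1 with STING siRNAs were called with each library left out, and the others were not. The cell cycle and interferon gene sums also differed between these groups, and their part in these differences was not tested.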

How the results depend on the processing

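No called member value changed direction under an alternative; the fatty acid median of YT against control, -0.06, was 0.16 without control replicate 1, 0.041 without control replicate 2 and 0.17 without YT replicate 4. Of 233 called values, 228 to 233 held with a pseudocount of 0.25 or 4, no filter, a 5 CPM filter, median-of-ratios scaling, edgeR or DESeq2; 202 held with a constant prior and 212 with only the groups compared. The sterol median was, for cGAS against control, 0.81 with pseudocount 0.25, 0.69 with 4, 0.81 by edgeR and 0.83 by DESeq2. For cGAS against STING it was 1.07, 0.91, 0.99 (5 CPM filter), 1.19 (edgeR) and 1.20 (DESeq2), and for cGAS_YT against STING_YT 1.66, 1.49, 1.64, 1.73 and 1.73. It was -0.33 (edgeR) and -0.32 (DESeq2) for STING against control, 0.47 (pseudocount 4) and 0.48 (median of ratios) for cGAS_YT against cGAS, and, with pseudocount 4, -0.0795 for STING_YT against STING and -0.64 for STING_YT against YT. The fatty acid median was -0.34 (pseudocount 4) and -0.36 (edgeR) for STING against control and 1.08 (pseudocount 4) for cGAS_YT against STING_YT. Members called were 8 for YT against control with only the groups compared and 3 for the YAP and TAZ by STING interaction with a constant prior; the cause was not tested.

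With each library left out (the lone library then borrowing the spread of the other groups), members called were 13 to 23 for YT against control, 22 to 28 for cGAS against control, 10 to 22 for STING against control, 13 to 24 for cGAS_YT against cGAS, 13 to 23 for STING_YT against STING, 26 to 33 for cGAS_YT against YT, 23 to 30 for STING_YT against YT, 29 to 34 for cGAS against STING, 30 to 35 for cGAS_YT against STING_YT, and 1 to 11 and 2 to 11 for the interactions with cGAS and STING. The sterol and fatty acid medians then ranged over 0.15 to 0.29 and -0.062 to 0.17 for YT against control, 0.66 to 0.85 and 0.68 to 0.81 for cGAS against control, -0.34 to -0.26 and -0.51 to -0.35 for STING against control, 0.45 to 0.51 and 0.17 to 0.34 for cGAS_YT against cGAS, and -0.13 to -0.050 and -0.19 to -0.036 for STING_YT against STING. They ranged over 0.85 to 0.92 and 0.67 to 0.73 for cGAS_YT against YT, and -0.81 to -0.67 and -0.56 to -0.37 for STING_YT against YT. For cGAS against STING they were 0.92 to 1.005 and 0.56 to 0.85, and for cGAS_YT against STING_YT 1.59 to 1.65 and 1.14 to 1.24. For the interaction with cGAS they were 0.029 to 0.24 and 0.077 to 0.17, and for that with STING -0.37 to -0.23 and -0.19 to -0.048. Of 185 values not called, 45 became called without YT replicate 3 and 30 without YT replicate 4. No paired analysis was possible because each replicate number occurs once. With 2 libraries a group, a missed call does not show that a gene was unchanged.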
